A study of Mus musculus with 11 samples.

Results

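The 10 genes Opn4, Spp1, Kcng4, Mmp17, Col25a1, Fstl4, Fes, Tpbg, Igf1 and Igfbp2 are used as markers of ganglion cell types other than the J-RGC, and they were followed here through sorted J-RGCs with and without Tbr1. They were found by their symbols among the 24421 genes counted in every library, and all 10 were present. J-RGCs are direction-selective retinal ganglion cells named for the adhesion molecule Jam2, and Tbr1 encodes a T-box transcription factor that they express. In both genotypes the cells carried green fluorescent protein from a transgenic line described as specific to J-RGCs, were taken from the retina of mice of mixed C57BL/6 and CD1 background at postnatal day 4 to 5, and were sorted by flow cytometry into pools of 100 cells. The WT group had 5 pools from 4 animals, WT animals a (pool 1), b (pools 2 and 3), c (pool 4) and d (pool 5). The Tbr1 KO group had 6 pools from 4 animals, KO animals a (pools 1 and 2), b (pools 3 and 4), c (pool 5) and d (pool 6). The labels name neither the driver of the reporter nor the Tbr1 allele and the cells in which it was removed.

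Retinal ganglion cells carry the output of the eye to the brain and fall into many types, each with its own dendritic layer, light response and set of transcripts. Melanopsin ganglion cells sense light directly through the photopigment encoded by Opn4. Alpha ganglion cells are large, fast-conducting cells recognised by osteopontin (Spp1) and the potassium channel subunit Kv6.4 (Kcng4). ON-OFF direction-selective cells respond to motion along a preferred direction, and Mmp17, Col25a1 and Fstl4 are known from their transcripts. Counting these transcripts in sorted pools shows how much RNA of each marker a pool held, and comparing genotypes shows whether their amount differed without Tbr1. In pooled RNA, fewer cells of a type and less RNA per cell cannot be told apart. Marker RNA of the J-RGCs themselves and marker RNA of other cells in a pool cannot be told apart either.

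The pools had 8609845 to 34718693 reads counted over genes and 13897 to 15440 genes detected. Levels are given as CPM, the counts of a gene scaled to the size of its library with TMM factors, and 3 counts, the upper limit that a count of 0 allows, corresponded to 0.0864 to 0.347 CPM, a limit for counting error only. Ganglion cell RNA was present throughout, with all 14 pan-ganglion markers counted in all 11 pools and a summed level of 17000 to 19600 CPM in WT and 17400 to 19500 in KO animals. That sum does not show each gene to be even. Of the 14, edgeR called 0, where it called 0.287% of tested genes, and DESeq2 called 1, where it called 1.12%. An unadjusted edgeR p under 0.05 was found for 7, against 7.09% of tested genes. For 2 all KO animals lay below all WT animals, against 2.48%. Jam2 was at 452 to 619 CPM in WT animals and 87.4 to 130 in KO animals. Tbr1 was still counted in every pool, at 155 to 193 CPM in WT and 94.2 to 145 in KO animals, and reads from exons that remain in a mutant allele would be counted too, so it does not check the labels. Of other retinal cells, 12 amacrine genes summed to 296 to 550 CPM in WT and 609 to 852 in KO animals, 19 photoreceptor genes to 86.3 to 379 and 69.7 to 1310, 9 bipolar genes to 36.5 to 60.1 and 48.2 to 111, 16 Müller and progenitor genes to 356 to 528 and 510 to 806, and 4 horizontal cell genes to 47.1 to 64.8 and 93.3 to 123. The horizontal cell gene Lhx1 and the cone opsin gene Opn1mw were at 0 in all pools, and the highest photoreceptor sum was that of KO animal c. The part of these cells in the results below was not tested, beyond the values given beside them.

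Fstl4 stood apart from the other markers by its level. It encodes a follistatin-like secreted protein, and a transgenic line made with its sequences labels ON-OFF direction-selective cells. In the WT pools 1 to 5 it was at 128, 152, 142, 203 and 134 CPM. In the KO pools 1 to 6 it was at 165, 123, 117, 140, 155 and 234 CPM. No pool lacked it, the genotypes overlapped fully, and both pools of an animal differed by 1.07-fold, 1.34-fold and 1.19-fold in the 3 animals with a pair. The means were 154 ± 34.4 CPM in WT and 166 ± 46.6 CPM in KO animals (SD, n = 4 each), a log2 fold change of 0.11 ± 0.20 (SE) with a 95% interval of -0.33 to 0.54. Its Benjamini-Hochberg adjusted p in edgeR, over all genes tested by quasi-likelihood, was 0.978. Without KO animal d, which had the highest level, the log2 fold change was -0.10.

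Per kilobase of exon, Fstl4 had 35.2 ± 7.86 CPM in WT animals (SD, n = 4), and no other member's range overlapped with it. Over all 8 animals it lay above 88.5% of the tested genes on this scale. Igfbp2 (2.28), Igf1 (1.89), Tpbg (1.67) and Opn4 (1.498) followed in WT animals, each overlapping in range with the next. Mmp17 (0.643) lay below the range of Opn4 and overlapped with Spp1 (0.494), which overlapped with Fes (0.407). Col25a1 (0.105) lay below Fes, and Kcng4 was at 0 in WT animals. The 9 members other than Fstl4 lay above 0.269% (Kcng4) to 39.0% (Igfbp2) of the tested genes. Together they summed to 33.8 to 55.0 CPM in WT animals and 23.0 to 43.2 CPM in KO animals, against 126 to 233 CPM for Fstl4 alone over all 8 animals.

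**Figure D1:**
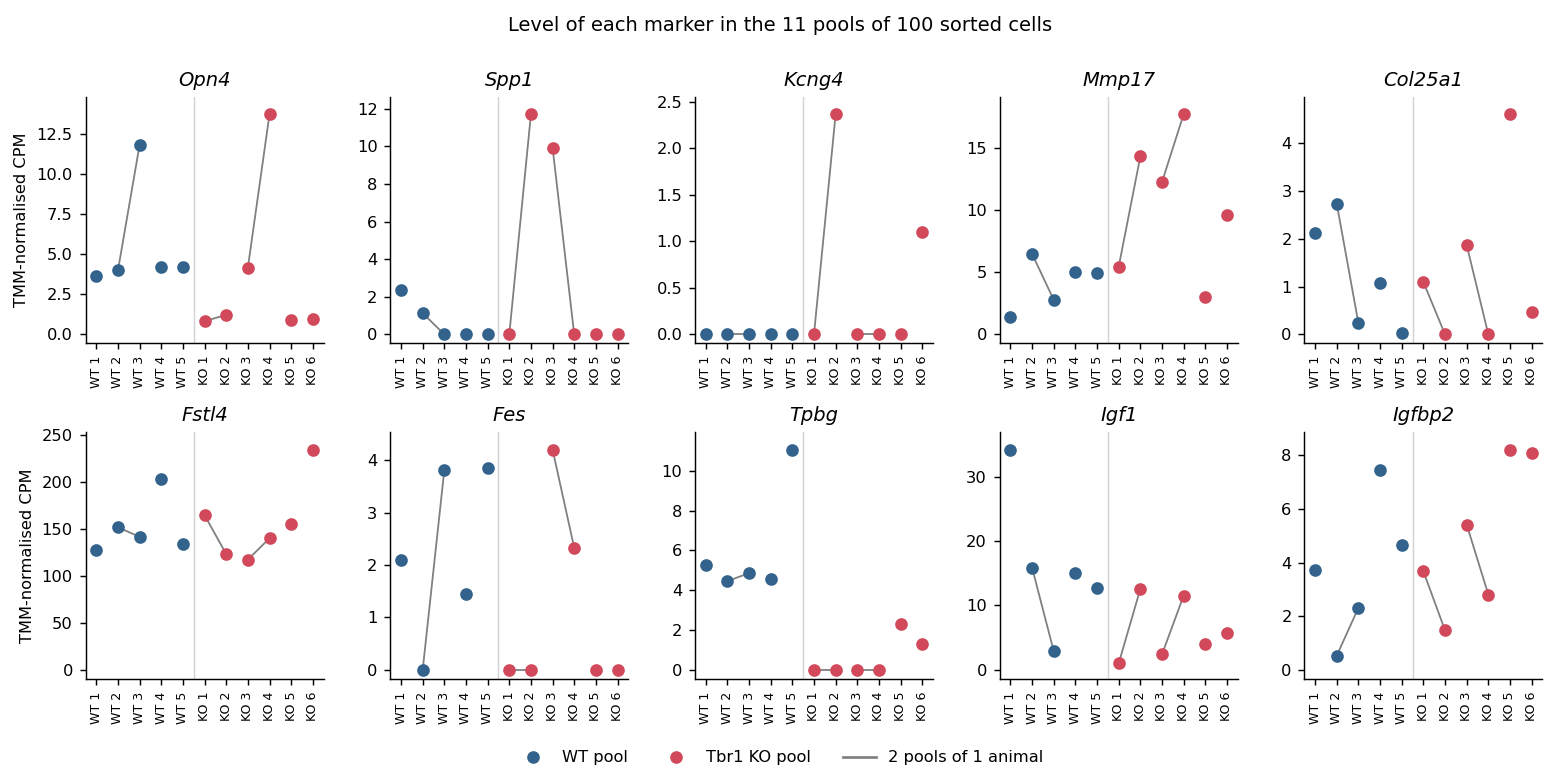
TMM-normalised CPM (vertical axes, each from about 0 to its own maximum) of the 10 markers in the 5 WT pools (blue) and 6 Tbr1 KO pools (red), with a grey line between both pools of 1 animal. Fstl4 was at 117 to 234 CPM in every pool, Tpbg was higher in each WT pool than in any KO pool, and Spp1 and Kcng4 were counted in 4 and 2 pools.

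No member passed the test between genotypes. Of the 10 members, 9 passed the filter on low counts, and 0 of these 9 had an adjusted p under 0.05, where 0.287% of the 13957 tested genes did, 0.086% higher and 0.201% lower in KO animals (edgeR, Benjamini-Hochberg). At an unadjusted p under 0.05 the same test gave 1 member, Igf1, against 7.09% of all tested genes. DESeq2 called 1 of the 8 members to which it gave an adjusted p, again Igf1, at a Benjamini-Hochberg adjusted p of 0.00305, where it called 1.12% of 13896 genes. The genotypes did not overlap for 2 of the 9, where 5.06% of tested genes did not. All KO animals lay below all WT animals for both, Igf1 and Tpbg, where 2.48% of tested genes did so, and for 0 of the 9 they lay above, where 2.58% did. The log2 fold changes were positive for 5 members and negative for 4, with a median of 0.11 beside one of -0.00071 over all tested genes. A p that misses the threshold does not show equal levels, and the 95% intervals were wide for all but Fstl4, as the plot of fold changes shows.

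**Figure D2:**
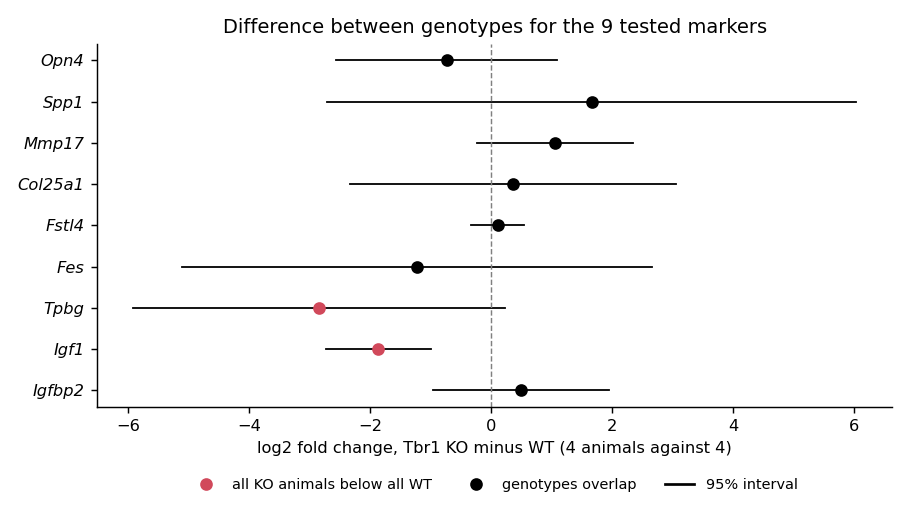
Log2 fold change of the 9 tested markers, Tbr1 KO minus WT (horizontal axis), with its 95% interval from the edgeR quasi-likelihood fit of 4 against 4 animals. The interval of Igf1 (-2.73 to -1.004) lay below 0, the other 8 included 0, and red points mark the 2 genes whose KO animals all lay below all WT animals.

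Igf1 encodes insulin-like growth factor 1, a secreted growth factor, and was at 34.3, 13.0, 15.1 and 12.7 CPM in WT animals a to d. In KO animals a to d it was at 5.01, 5.83, 4.06 and 5.67 CPM. Every KO animal was thus below the lowest WT animal, and WT animal a stood above the rest. The means were 18.8 ± 10.4 and 5.14 ± 0.805 CPM (SD, n = 4 each), a log2 fold change of -1.87 ± 0.40 (SE), with an edgeR p of 0.000482 before and 0.102 after Benjamini-Hochberg adjustment. Without WT animal a the log2 fold change was -1.39, with an edgeR adjusted p of 0.227.

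The separation of Igf1 between genotypes was not seen pool by pool. WT pools 1 to 5 were at 34.2, 15.8, 2.89, 15.0 and 12.7 CPM, and KO pools 1 to 6 at 0.995, 12.5, 2.39, 11.5, 4.07 and 5.70 CPM. WT pool 3 lay below 4 of the KO pools, and KO pools 2 and 4 lay close to WT pool 5. Both pools of an animal differed by 5.48-fold in WT animal b, 12.6-fold in KO animal a and 4.82-fold in KO animal b, where the median tested gene counted in both pools differed by 1.41-fold, 1.33-fold and 1.3-fold. With only the deeper pool of each animal the log2 fold change was -2.56 ± 0.56, and with only the shallower pool, an alternative chosen after the data were seen, it was -0.95 ± 0.62 (SE). The Benjamini-Hochberg adjusted p was 0.137 and 0.838 in these edgeR fits.

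Microglia, the resident phagocytes of the retina, are known to express both Igf1 and Spp1, and genes of these cells were counted in the pools. The list of 16 microglial genes had 15 counted in at least 1 pool, with Itgax at 0 in all, and it summed to 52.6 to 234 CPM in WT and 52.2 to 124 CPM in KO animals. Of its 13 tested genes 0 were called by edgeR, 1 had an unadjusted p under 0.05 and 0 were called by DESeq2, and their median log2 fold change was -1.04. In WT pools 1 to 5 the list summed to 233, 140, 43.6, 92.8 and 52.5 CPM. In KO pools 1 to 6 it summed to 79.4, 164, 177, 37.2, 74.4 and 52.5 CPM. WT pool 1 was highest for the list and for Igf1. KO pool 4 was lowest for the list, with C1qb, a complement component, at 0 and C1qc at 1.90 CPM, and had 11.5 CPM of Igf1, whereas KO pool 3 had C1qb at 36.7 CPM and 2.39 CPM of Igf1.

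Spp1 encodes osteopontin, a secreted phosphoprotein. Its exons share 309 bases with the annotated gene Gm42793 on the same strand. Spp1 was counted in WT pools 1 (2.37 CPM) and 2 (1.13 CPM) and in KO pools 2 (11.7 CPM) and 3 (9.93 CPM). The other 7 pools had 0 counts, including 1 pool of each of the 3 animals with a pair. These 4 pools were the 4 with the highest microglial sums, from 140 to 233 CPM, and the other 7 had sums of 37.2 to 92.8 CPM. The animal means were 0.815 ± 1.12 CPM in WT and 2.57 ± 3.09 CPM in KO animals (SD, n = 4 each), a log2 fold change of 1.66 ± 2.01 (SE) with an edgeR Benjamini-Hochberg adjusted p of 0.952.

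**Figure D3:**
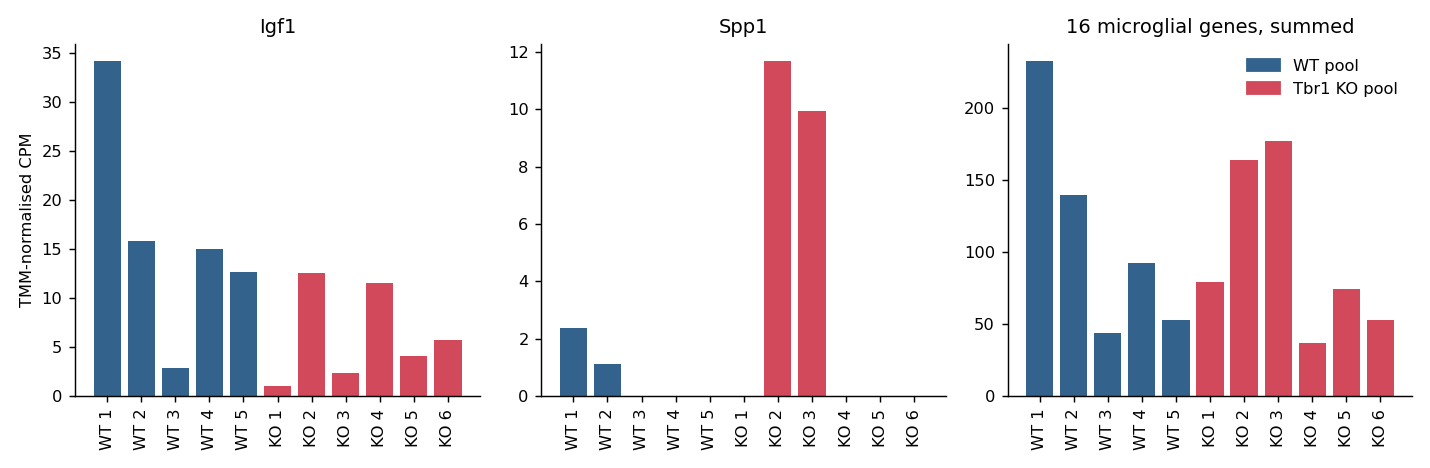
TMM-normalised CPM (vertical axes, from 0) of Igf1, Spp1 and the sum of 16 microglial genes in each WT (blue) and Tbr1 KO (red) pool. Spp1 was counted in the 4 pools with the highest microglial sums, whereas Igf1 was counted in all 11 and reached 11.5 CPM in KO pool 4, which had the lowest sum.

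Kcng4, the other alpha cell marker, encodes a modulatory subunit of voltage-gated potassium channels. It had 0 counts in all 5 WT pools and in 4 of the 6 KO pools. KO pool 2 had 37 counts (2.37 CPM) and KO pool 6 had 35 counts (1.10 CPM). Over the group the KO level was 18.8-fold that of a floor of 3 counts over the WT group, on the strength of these 2 pools. KO animals b and c had 0 counts, as did the other pool of KO animal a. That floor covers counting error only, without the spread between pools and animals, so the ratio is no lower bound on a difference between genotypes. Kcng4 did not pass the filter on low counts, and without that filter edgeR gave a Benjamini-Hochberg adjusted p of 0.550.

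Other genes of alpha cells did not share one pattern across these pools. Nefh, the heavy neurofilament chain, was at 6.83 to 22.1 CPM in WT pools and 14.9 to 29.8 CPM in KO pools, and was highest in KO pool 2. Kcnip2, an accessory subunit of potassium channels, was at 0 to 9.22 CPM in WT pools and 0.103 to 11.9 CPM in KO pools, and was highest in KO pool 6. Tusc5, listed here with further ganglion cell types, was at 14.8 CPM in KO pool 2 and 8.47 CPM in KO pool 6, the same 2 pools that held Kcng4, and at 0.116 to 1.67 CPM in the other 9. Pvalb, the calcium buffer parvalbumin, had 0 counts in every pool. Of the 3 other alpha genes listed 2 were tested, and of 7 genes of further ganglion cell types 5 were tested. In both lists 0 were called by edgeR, 0 had an unadjusted p under 0.05 and 0 were called by DESeq2.

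Tpbg encodes trophoblast glycoprotein, a leucine-rich membrane protein, and separated the genotypes in every pool. WT pools 1 to 5 were at 5.26, 4.46, 4.86, 4.57 and 11.1 CPM. KO pools 5 and 6 were at 2.29 and 1.29 CPM, and KO pools 1 to 4, from animals a and b, had 0 counts. Both pools of WT animal b agreed within 1.09-fold. The animal means were 6.38 ± 3.15 CPM in WT and 0.892 ± 1.11 CPM in KO animals (SD, n = 4 each), a log2 fold change of -2.84 ± 1.41 (SE) with a 95% interval of -5.92 to 0.23. The Benjamini-Hochberg adjusted p in edgeR was 0.755, and in DESeq2 0.423. Exons of Tpbg share 898 bases with the transcript 9330154J02Rik on the opposite strand, whose reads cannot be told apart without strand. How reads in shared bases were counted is not given by the labels.

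Opn4, which encodes melanopsin, was counted in every pool at a low level. Its exons share 130 bases with the annotated gene Gm49012 on the opposite strand. WT animals a to d were at 3.63, 5.75, 4.18 and 4.18 CPM, and KO animals a to d at 0.958, 7.75, 0.919 and 0.972 CPM. KO animals a, c and d lay below every WT animal, and KO animal b lay above every WT animal. Its pools 3 and 4 were at 4.15 and 13.7 CPM, so the excess was in 1 pool, and WT pool 3 was similar at 11.8 CPM beside 3.99 CPM in the other pool of that animal. The log2 fold change was -0.74 ± 0.84 (SE), with a 95% interval of -2.57 to 1.09 and an edgeR Benjamini-Hochberg adjusted p of 0.949. Without KO animal b it was -2.22 ± 0.85, with an edgeR quasi-likelihood p of 0.0241 before and 0.721 after Benjamini-Hochberg adjustment.

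Of 7 other genes listed for melanopsin cells 3 were tested, of which edgeR called 0, with 1 at an unadjusted p under 0.05, and DESeq2 called 1. Eomes, the T-box factor of these cells, was at 0.377 ± 0.670 CPM in WT and 1.20 ± 1.31 CPM in KO animals (SD, n = 4 each) and did not pass the filter. Eomes was highest in KO pool 3 (4.00 CPM) and was at 0 in KO pool 4, the pool with the most Opn4. Adcyap1, which encodes the neuropeptide PACAP, was at 13.2 ± 2.24 and 9.57 ± 2.52 CPM. Plcb4, a phospholipase of the melanopsin cascade that other neurons express too, was at 37.4 ± 11.7 and 74.3 ± 4.11 CPM, with all KO animals above all WT animals and an edgeR Benjamini-Hochberg adjusted p of 0.144.

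Mmp17 encodes a membrane-anchored matrix metalloproteinase, and was counted in all pools. WT animals a to d were at 1.37, 5.67, 5.05 and 4.93 CPM, and KO animals a to d at 8.53, 14.3, 2.99 and 9.56 CPM. KO animals a, b and d lay above every WT animal, and KO animal c lay among them. The log2 fold change was 1.06 ± 0.59 (SE), with a 95% interval of -0.23 to 2.34 and an edgeR Benjamini-Hochberg adjusted p of 0.808. With only the deeper pool of each animal it was 0.77 ± 0.65, and with only the shallower pool, chosen after the data were seen, 1.65 ± 0.63. Without KO animal b it was 0.72 ± 0.68. The edgeR Benjamini-Hochberg adjusted p was 0.963, 0.603 and 0.991 in these fits.

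Col25a1 encodes a transmembrane collagen and was patchy. It was at 0.0313 to 2.73 CPM in WT pools and 0 to 4.61 CPM in KO pools, with 0 counts in KO pools 2 and 4 while the other pool of each of those animals held 1.10 and 1.87 CPM. The highest level was that of KO animal c, which also had the highest photoreceptor sum. The log2 fold change was 0.36 ± 1.24 (SE), and -0.78 without KO animal c and -0.05 without WT animal d.

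The 8 other genes listed for ON-OFF direction-selective cells gave 1 call, lower in KO, among 6 tested by edgeR. Over all tested genes 0.201% were called lower. The log2 fold changes of the 6 had a median of -0.72 and were not all negative. At an unadjusted p under 0.05 edgeR gave 3 of the 6, against 7.09% of all tested genes, and DESeq2 called 2, against 1.12%. For 3 of the 6 all KO animals lay below all WT animals, where 2.48% of tested genes did so. The list was chosen with earlier results of these data known, so these shares are a description and no test of the list. Calb2, which encodes calretinin, was at 1170 to 1350 CPM in WT pools and 674 to 952 CPM in KO pools. It fell from 1269 ± 82.2 to 787 ± 114 CPM (SD, n = 4 each), a log2 fold change of -0.69 ± 0.11 (SE) with an edgeR Benjamini-Hochberg adjusted p of 0.0214. The adhesion molecule gene Cdh6 averaged 8.44 ± 3.51 CPM in WT and 1.68 ± 1.10 CPM in KO animals (SD, n = 4 each). All KO animals lay below all WT animals for it, with an edgeR Benjamini-Hochberg adjusted p of 0.350. Trhr, a receptor that marks a subset of these cells, had 2 counts in all 11 pools together, and Hoxd10 had 0.

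Fes encodes a cytoplasmic tyrosine kinase. WT pools 1 to 5 were at 2.09, 0, 3.82, 1.45 and 3.86 CPM. KO pools 3 and 4, both from animal b, were at 4.20 and 2.33 CPM, and the other 4 KO pools had 0 counts. All 4 WT animals thus had Fes and 1 of 4 KO animals did. The log2 fold change was -1.23 ± 1.79 (SE) with a 95% interval of -5.11 to 2.66 and an edgeR Benjamini-Hochberg adjusted p of 0.964. Without KO animal b no KO count remained, and the KO level was then a count of 0 in each of the 3 animals.

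Igfbp2 encodes a secreted binding protein for insulin-like growth factors and was counted in all pools. WT animals a to d were at 3.75, 0.932, 7.46 and 4.68 CPM, and KO animals a to d at 2.90, 4.43, 8.18 and 8.05 CPM. The genotypes overlapped over most of their range. The log2 fold change was 0.49 ± 0.67 (SE), with a 95% interval of -0.97 to 1.94 and an edgeR Benjamini-Hochberg adjusted p of 0.964.

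Igf1 and Igfbp2 act in one signalling system, in which the ligand binds the receptor Igf1r and binding proteins hold the ligand in the extracellular space. Of 13 other genes of this system, 10 were tested. Of these edgeR called 0, with 1 at an unadjusted p under 0.05, and DESeq2 called 0, with a median log2 fold change of 0.39. Igf1r was at 20.6 ± 1.60 CPM in WT and 33.9 ± 8.83 CPM in KO animals, a log2 fold change of 0.72 ± 0.25 (SE), and Insr, the insulin receptor, at 19.4 ± 13.0 and 30.3 ± 6.89 CPM (SD, n = 4 each). Igfbp4, another binding protein, was at 27.6 ± 8.33 and 19.6 ± 6.16 CPM, and Igfbpl1, a related secreted protein, at 46.4 ± 14.9 and 59.4 ± 7.48 CPM. The ligand Igf2 had 0 counts in 5 of 11 pools and did not pass the filter. After Benjamini-Hochberg adjustment in edgeR these 4 tested genes had adjusted p of 0.486 to 0.941.

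Presence from pool to pool divided the markers into 2 kinds. Opn4, Mmp17, Fstl4, Igf1 and Igfbp2 had at least 10 counts in all 11 pools. Col25a1, Tpbg, Fes, Spp1 and Kcng4 had 0 counts in 2, 4, 5, 7 and 9 pools. Of the 9 tested members, 4 were at 0 in at least 1 pool, where 15.2% of tested genes were, and 2 were at 0 in at least 5 pools, where 2.66% were. Zeros are more common at low levels, as the plot of zeros against mean level shows. Between both pools of 1 animal, 2 of the 9 tested members in each of WT animal b, KO animal a and KO animal b were counted in 1 pool only, where 6.09%, 5.19% and 4.88% of tested genes were. WT pools held 8 or 9 of the 10 members and KO pools 6 to 8. Over all genes, WT pools had 13897 to 15440 detected and KO pools 14651 to 15398. Pools of 1 animal are not independent.

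**Figure D4:**
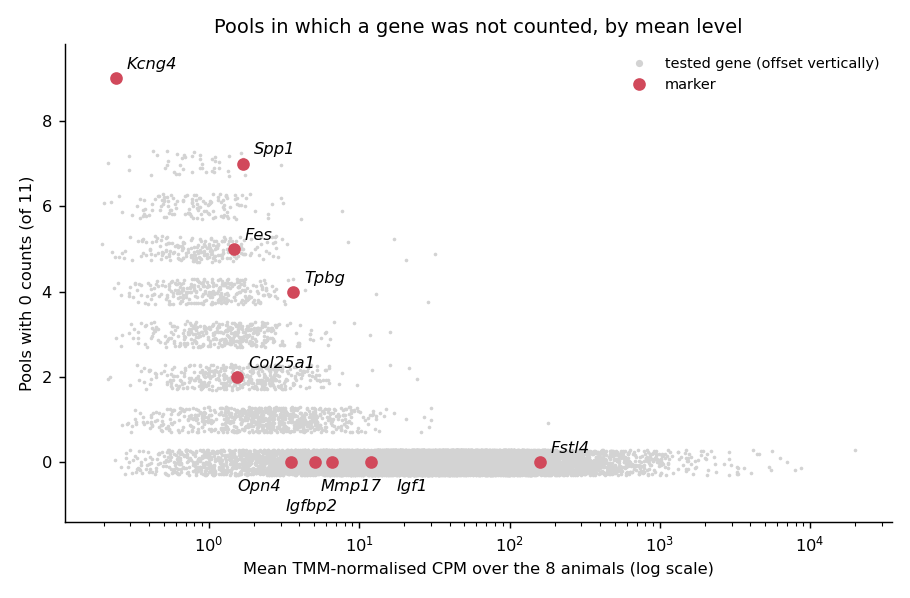
Number of pools with 0 counts (vertical axis, of 11) against mean TMM-normalised CPM over the 8 animals (horizontal axis, log scale) for all tested genes (grey, offset vertically) and the 10 markers (red). Tpbg had 0 counts in 4 pools at a mean of 3.64 CPM, and Fstl4 in none at 160 CPM.

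Upstream sequences are shown for Tpbg, Opn4 and Fstl4, whose levels were lower in every KO pool, lower in 3 of 4 KO animals and even over all pools, to set them beside the site that T-box factors are known to bind. They come from RefSeq (GRCm38.p6), which held starts for 9 of the 10 members, and are printed from 5′ to 3′ on the gene's strand up to the start, or up to the first annotated exon base for Fstl4. The T-box site AGGTGTGA was searched on both strands with its reverse complement TCACACCT. Capitals mark its inner letters GGTGT or their reverse complement ACACC, a shorter motif added after the data were seen and contained in that site. Tpbg lies on chr9:85842130-85842379 (plus strand), Opn4 on chr14:34600143-34600392 (minus strand) and Fstl4 on chr11:52764456-52764633 (plus strand).
Tpbg: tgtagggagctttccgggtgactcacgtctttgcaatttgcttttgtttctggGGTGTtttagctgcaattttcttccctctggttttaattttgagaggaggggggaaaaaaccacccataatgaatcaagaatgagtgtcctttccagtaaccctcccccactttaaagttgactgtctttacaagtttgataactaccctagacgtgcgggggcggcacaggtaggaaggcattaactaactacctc
Opn4: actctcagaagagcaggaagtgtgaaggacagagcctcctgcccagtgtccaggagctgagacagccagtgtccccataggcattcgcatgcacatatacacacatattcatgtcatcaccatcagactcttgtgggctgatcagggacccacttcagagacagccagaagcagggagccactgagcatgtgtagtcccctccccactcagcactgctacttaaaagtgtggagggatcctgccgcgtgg
Fstl4: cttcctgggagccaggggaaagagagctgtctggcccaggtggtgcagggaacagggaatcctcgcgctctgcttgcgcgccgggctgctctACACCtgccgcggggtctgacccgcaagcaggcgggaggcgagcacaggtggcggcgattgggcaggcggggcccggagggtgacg
The full site was in 0 of the members' 12 windows of 250 bases before a RefSeq start and in 1.12% of all 32851 windows. The window of Igf1 lay wholly within annotated exons, and those of Fstl4 and the second start of Igfbp2 held 72 and 65 exon bases. The inner letters were in 3 of the 12, upstream of Tpbg, Fstl4 and a second start of Spp1, and in 36.2% of all windows. A match describes letters only, and no match says only that these letters are not in the window.

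Fstl4 alone had a mean of at least 16 CPM, the level set for a search of genes with a like pattern. Of the 7994 other genes at that level, those with the highest Pearson correlation of log2 CPM with it over the 8 animals were Qpctl (0.974), Ccdc132 (0.971) and Zfp532 (0.946), given as a description of 8 points that share their libraries.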

How the data were processed

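RNA was sequenced from 11 pools of sorted cells with Smart-seq2 and Nextera XT libraries, per the labels' protocols. The authors deposited unnormalised counts of reads for each gene symbol. TopHat2 2.0.10, HTSeq 0.6.1, Trimmomatic 0.32 and the build mm10 (GRCm38) are named in the submitters' processing notes. No annotation or strand setting is named. Lines that name no gene (36.1% to 39.9% of reads listed) stayed out of library sizes. PCR duplicates were not removable.

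Pools of 1 animal were summed, and 4 animals per genotype were tested with edgeR 4.0.16 in R 4.3.3 (filterByExpr, TMM, robust quasi-likelihood test, Benjamini-Hochberg adjustment over 13957 genes, threshold 0.05). The fit was checked on simulated data. SE is the log2 fold change divided by the square root of F. Alternatives were other scalings and filters, DESeq2 1.42.0, other units of replication, a replicate block and leaving out each animal. Exon lengths and positions are from GENCODE M21 (GRCm38), which matched 13398 tested genes. All members are named, Tbr1 and Jam2 too, and up to 4 genes of each list, called genes first and then by level. Trhr, Hoxd10, Itgax, Eomes, Igf2, Opn1mw and Opn1sw are named outside or beside that order, chosen after their values were seen. The members and lists were chosen with earlier results of these data known. 1 gene of the direction-selective list is not reported here.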

Additional observations from a re-analysis of the deposited data

Results flagged for a closer look

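In 5 groups of 4 animals, among 19 examined, 1 animal stood far from the other 3 by Dixon's criterion at the 95% level. The criterion sets its gap to the nearest animal against the range. Chance gives about 1 in 20 for normally distributed values, and these low levels with counts of 0 were not shown to be such. A group with 3 animals at 0 and 1 above, as for Fes, always meets it. Igf1 was at 34.3 CPM in WT animal a, against 12.7 to 15.1 in the other WT animals. Tpbg was at 11.1 CPM in WT animal d, against 4.56 to 5.28. Opn4 was at 7.75 CPM in KO animal b, against 0.919 to 0.972 in the other KO animals. Fes was at 3.50 CPM in KO animal b, against 0 in the other 3 KO animals. Col25a1 was at 4.59 CPM in KO animal c, against 0.470 to 1.17.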

How the results depend on the processing

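The count of genes past the threshold was 40, and it was 156 with DESeq2, 84 with the 11 pools as separate samples and 17 to 44 when 1 animal was left out (18 without WT animal b, 22, 17 and 25 without KO animals a, b and d). The count of members was 0 in all edgeR fits and 1 with DESeq2 (Igf1), and DESeq2 gave no p for Opn4. Leaving out 1 animal gave Fstl4 log2 fold changes of -0.10 to 0.27 and Col25a1 ones of -0.78 to 0.68. With the pools as samples and the replicate number as a block (replicate block), 43 genes passed, and Fstl4 (-0.11) and Col25a1 (-0.92) turned sign; the cause was not tested. In that fit Tpbg was at -7.64 ± 1.73, with an edgeR adjusted p of 0.147, and Fes at -3.00 ± 2.70 (SE), both with pools at 0 counts, so that these fitted values are no bounds. The numbers mark no shared animal, same-numbered pools correlated by -0.028 to 0.13 in their deviations, and only number 5 was the best match in both directions. Igf1 stayed negative in all 18 alternatives, at -2.56 to -0.95, with edgeR adjusted p of 0.0989 to 0.838. Pools of 100 cells and levels of a few CPM limit what 4 animals can show.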
